A study of Mus musculus with 8 samples.

Results

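Respiratory complex I, the NADH dehydrogenase of the inner mitochondrial membrane, was followed through the transcripts of 42 nuclear genes in mouse hearts with a knockdown of Taz. The list held 6 core subunits, 29 accessory subunits, 6 assembly factors and Ndufa4, a protein first named as a complex I subunit and later assigned to complex IV. Of these genes, 39 had a probe on the array under their symbol or a synonym, and 32 had a probe with a detection p-value under 0.05 on at least 4 of the 8 arrays. These 32 genes, read by 40 probes, are described here, out of 6889 genes and 9397 probes that passed the same filter. No probe was matched to Ndufa11, Ndufs5 or Ndufaf2, and the probes of Ndufs1, Ndufb2, Ndufb4, Ndufb11, Ndufab1, Ndufaf3 and Nubpl did not pass the filter. The core subunits made inside mitochondria were not analysed here.

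The knockdown mice carried a transgene for a doxycycline-induced short hairpin RNA against Taz, which encodes tafazzin, an enzyme that remodels cardiolipin, and serve as a model of Barth syndrome. The wild-type mice were their littermates. Both groups were of C57BL/6J background, were 2 months old and received chow with 625 mg/kg doxycycline, so the drug does not separate the groups, whereas the transgene and its induction do. One heart of 1 mouse was hybridised per Illumina bead array, with 4 hearts in each group. No source used here gives the promoter that drives the hairpin or the cells that carry it.

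Complex I takes electrons from NADH and passes them through a chain of iron-sulfur clusters to ubiquinone, while its membrane arm pumps protons. Its N module binds NADH, its Q module reduces ubiquinone, and its membrane arm is built as a proximal and a distal part around subunits encoded by mitochondrial DNA. Core subunits carry the cofactors and the catalytic path, accessory subunits surround and hold them, and assembly factors help to build the enzyme without staying in it. Cardiolipin, the substrate of tafazzin, is a lipid of the membrane in which the enzyme sits, and the heart is among the tissues richest in complex I.

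Of 25697 probes, 9027 to 10183 were detected on the knockdown arrays and 8935 to 9601 on the wild-type arrays. Taz itself was lower in every knockdown heart: its brighter probe had a deposited signal of 69.9, 68.1, 53.3 and 59.5 in knockdown hearts 1 to 4, against 538.6, 639.4, 477.2 and 515.8 in wild-type hearts 1 to 4, a normalized level of 13.6% of wild type (limma, adjusted p = 1.11e-07). All 7 probed markers of ventricular heart muscle were detected on the arrays, while Myh1, Myh4 and Tnnt3 of skeletal muscle were detected on none. Of 8 markers of the atrium, 7 were tested and all had negative differences, with a median of -0.58. Their summed deposited signal was 28294 to 41057 in knockdown hearts, against 31255 to 67033 in wild-type hearts. Wild-type heart 4 stood apart for Ucp1 of brown fat, with a signal of 297.6 against at most 31.9 in the other 7 hearts. Of 5 brown fat markers 3 were tested, with a summed signal of 306 to 460 in knockdown hearts and 202 to 793 in wild-type hearts, and Plin1 was detected on no array. Leukocyte markers were tested by 3 of 8 genes, all with negative differences, with sums of 1588 to 2493 in knockdown and 1710 to 2785 in wild-type hearts, and neither Ptprc nor Cd3e was detected. Lyz2 of this list passed the test at -0.48 (limma, adjusted p = 0.045). The 3 tested red blood cell markers of 4 all had positive differences, 0.09 for Hba-a1, 0.59 for Alas2 and 0.94 for Slc4a1, of which none passed (limma, adjusted p = 0.759, 0.189 and 0.0583). They summed to 38438 to 55682 in knockdown and 37004 to 47646 in wild-type hearts, a sum carried by Hba-a1. Because these are whole-tissue RNA samples, fewer cells of a type and less RNA per cell cannot be told apart.

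Sequence near the gene start is shown first for the members that share a motif. In 300-base promoter windows from RefSeq (build GRCm38.p6, 250 bases before to 50 after the annotated gene start), 39 member genes had 41 windows. The 8 letters AAGATGGC, a core of the binding site of the transcription factor YY1, occurred in 7 of the 41 windows (17.1%), against 2.75% of all 32851 windows, counting both strands. All 7 matches lay on the strand of the gene, between bases 23 and 46 after the start. These letters contain ATG, and whether the matches coincide with the start codons of these genes was not examined. Binding of YY1 was not measured. The stretches below are 30 bases long, 5′ to 3′ on the strand of the gene, with the YY1 core in capitals.

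Ndufs7 (GRCm38.p6, chr10:80249455-80249484, plus strand): tgtctgaaggccgaggccAAGATGGCggcg
Ndufa3 (GRCm38.p6, chr7:3617377-3617406, plus strand): cttgtcgccgccaagaacAAGATGGCcggg
Ndufc1 (GRCm38.p6, chr3:51408922-51408951, minus strand): aggcggagcctgcggaacAAGATGGCgccg
Ndufa9 (GRCm38.p6, chr6:126849104-126849133, minus strand): cgtgaggcattgtgggagAAGATGGCggcc
Ndufb8 (GRCm38.p6, chr19:44555393-44555422, minus strand): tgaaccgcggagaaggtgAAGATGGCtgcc
Ndufs4 (GRCm38.p6, chr13:114388048-114388077, minus strand): ctggcgtttgcctacaggAAGATGGCggcg
Ndufs6 (GRCm38.p6, chr13:73328438-73328467, minus strand): gggtcaagggtcaccggcAAGATGGCggcg

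The core ended with the gene's 30th base in Ndufa3 and Ndufc1, and with its 46th base in Ndufb8. The 8 letters GCGCATGC, a core of the site of NRF1, a regulator of nuclear genes for mitochondrial proteins, were found in 4 of 41 windows (9.76%, against 2.71% of all windows). These belonged to Ndufa6, Ndufa8, Ndufa11 and Ndufaf4, and in Ndufa11 and Ndufaf4 the match on one strand overlapped a match on the other. CCAAT, the box bound by NF-Y, occurred in 15 of 41 windows (36.6%), close to its 37.4% over all windows. The 9 letters TCAAGGTCA, the site of the estrogen-related receptors, occurred in 0 of 41 member windows and in 0.423% of all windows, and no match says only that these letters are not in these windows. No match to one of these motifs overlapped a match to another in a member window.

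Ndufv3, the member with the only probe past the test, had none of the YY1, NRF1 or estrogen-related receptor letters. Its last 120 bases before the gene start hold 1 CCAAT box, on the opposite strand, in capitals here because this gene carries the only call. Another CCAAT box of its window, also on the opposite strand, lies at bases 4 to 8 after the start, outside the stretch shown.

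Ndufv3 (GRCm38.p6, chr17:31519995-31520114, plus strand): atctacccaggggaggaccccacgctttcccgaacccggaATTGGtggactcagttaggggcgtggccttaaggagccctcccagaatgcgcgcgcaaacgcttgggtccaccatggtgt

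**Figure D1:**
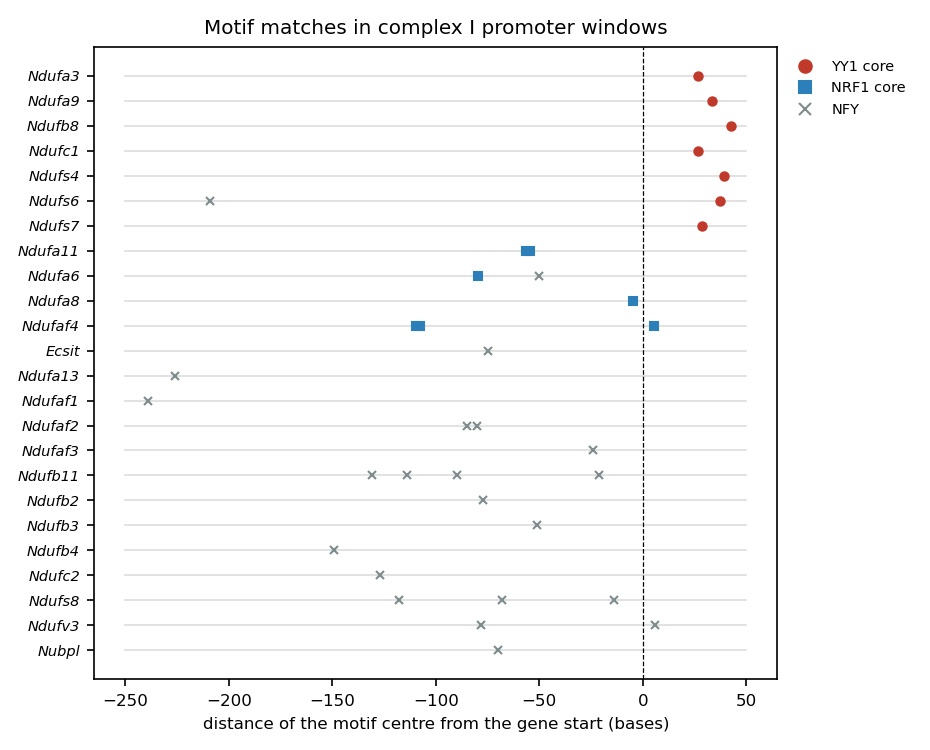
Positions of motif matches in the promoter windows of the complex I genes that hold at least 1, as distance in bases from the gene start (dashed line). The 7 YY1 cores (red circles) sit in a narrow band after the start. NRF1 cores (blue squares) lie between bases -113 and 9, and CCAAT boxes (grey crosses) are spread from -241 to 8.

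Transcript levels were compared between the groups on the log2 scale of normalized probe intensity, and each difference is the knockdown mean minus the wild-type mean with its standard error. Over 1 probe per gene, the one with the highest mean, 29 of 32 complex I genes had a difference below 0, against 52.2% of all tested genes. Their median difference was -0.16, so that the median gene stood at 89.7% of its wild-type level, against a median difference of -0.01 over all 6889 genes. All 4 knockdown hearts were below all 4 wild-type hearts for 12 of the 32 genes (37.5%), where this held for 8.36% of all genes, and the reverse order held for 1 gene (6.91% of all genes). The differences were small, and a single member probe, of Ndufv3, passed the test across all probes (limma, Benjamini-Hochberg adjusted p under 0.05): 1 of 40 member probes was called lower and 0 higher. Among all probes 3.16% were called lower and 3.42% higher, so the share of members past the threshold, 1 of 40, was near the background. At an unadjusted limma p under 0.05, 10 of the 32 genes were lower and 1 was higher, beside 11.5% and 9.75% of all genes.

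This count of calls depended on how the variance was moderated and on the background offset. With limma's variance prior given both an intensity trend and robust estimation, 9 member probes of 40 were called lower, where 5.08% of all probes were. With a background offset of 50 there were 7 (4.80% of all probes), and with only probes detected at p under 0.01 on all 8 arrays there were 4 (6.04% of those probes). With the deposited normalized table, with median scaling, with no filter, with array weights, with the replicate number as a block, with Myl7 as a covariate, and in 7 of the 8 fits without 1 heart there were 0. The median difference of the complex I genes stayed below 0 in every alternative, from -0.21 to -0.13.

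Many members were read by bright probes, a property of the array reading and not a transcript level, while those of Ndufb5, Ndufb9, Ndufb10, Ndufaf1 and Ecsit were dim. The 98 tested genes at or above the median intensity of the complex I probes had a median difference of -0.04, and 58.2% of them were below 0. The groups were separated in the lower direction for 19.4% of these bright genes, against 37.5% of the complex I genes. Some complex I genes are among the 98 and the others lie below that intensity. The 98 are thus neither a separate set nor matched in level to the members. Of the 32 members, 30 were detected in all 8 hearts, and of those 30, 28 had negative differences. Ndufb9 was detected in 2 hearts of each group and Ndufb10 in 3 knockdown and 2 wild-type hearts, so no member passed the filter through 1 group alone.

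**Figure D2:**
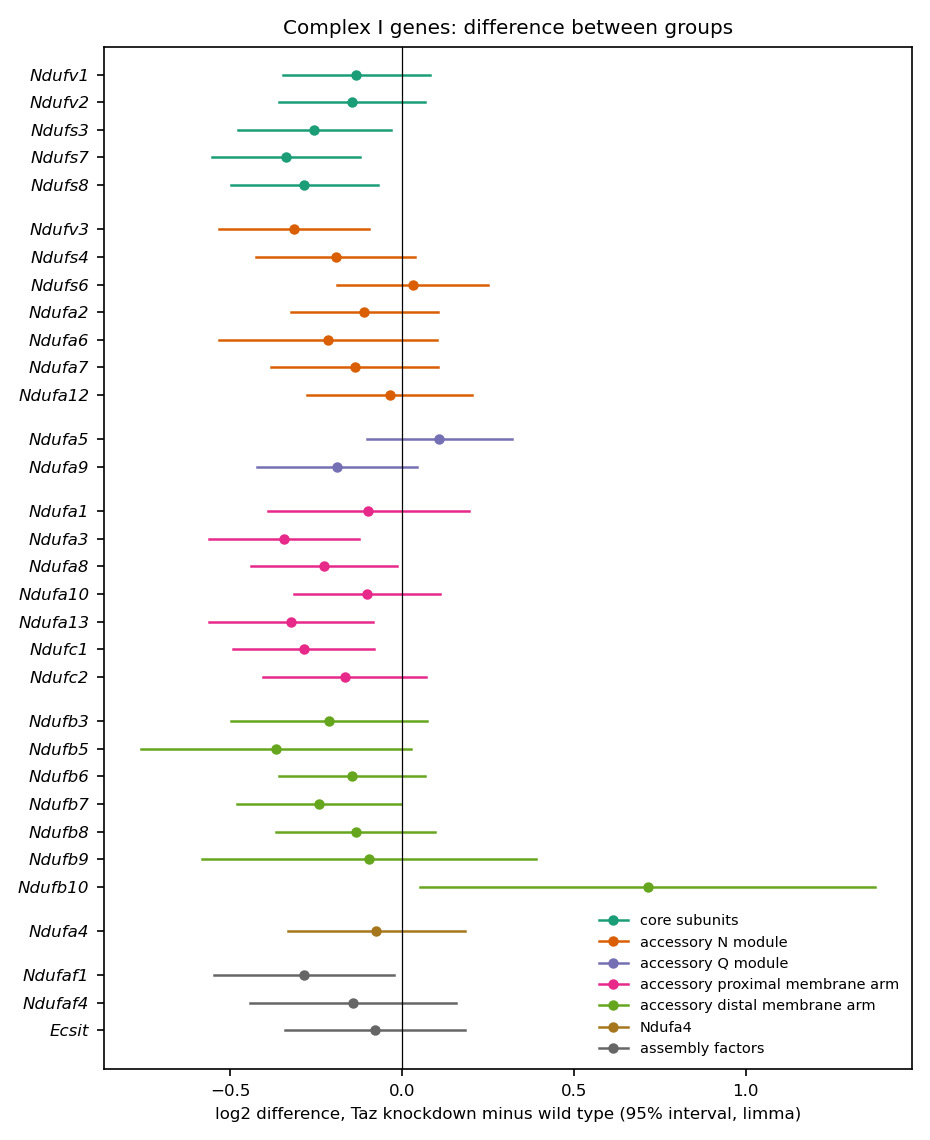
Difference in log2 intensity between Taz knockdown and wild-type hearts (4 each) for 32 complex I genes, 1 probe per gene, with the 95% interval from limma. Points are grouped by role from core subunits at the top to assembly factors at the bottom, and 29 of 32 lie left of 0.

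The core subunits, which carry the flavin and the iron-sulfur clusters, had the lowest median of the member classes at -0.26, with all 5 measured genes below 0. Groups did not overlap for 4 of these 5, all in the lower direction, beside 8.36% of all genes and 19.4% of the bright genes described above. Ndufs3, Ndufs7 and Ndufs8 were themselves below the intensity that defines those bright genes. No core gene passed the adjusted test, and whether core and accessory genes differ was not tested, since genes are not replicates.

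Ndufs7 carries the last iron-sulfur cluster before ubiquinone. Its log2 intensity was 12.24, 12.37, 12.36 and 12.22 in knockdown hearts 1 to 4, against 12.62, 12.54, 12.73 and 12.66 in wild-type hearts 1 to 4. All 4 knockdown hearts were below all 4 wild-type hearts, with means of 12.30 ± 0.08 in knockdown and 12.64 ± 0.08 in wild-type hearts (SD, n = 4 each). The difference was -0.34 ± 0.0979, or 79.1% of the wild-type level (limma, adjusted p = 0.0669). Over 18 alternative analyses the limma adjusted p ran from 0.00459, with the trended and robust variance prior, to 0.355. In 15 of the 18 this probe stayed uncalled.

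Ndufs8 holds the iron-sulfur clusters next to that of Ndufs7 in the chain. It read 11.91, 11.85, 11.94 and 11.83 in knockdown hearts 1 to 4, against 12.15, 12.04, 12.19 and 12.28 in wild-type hearts 1 to 4. The groups again did not overlap, and the difference was -0.28 ± 0.0978 (limma, adjusted p = 0.12). Its limma adjusted p ran from 0.0181, with the trended and robust prior, to 0.557, and 17 of 18 alternatives left it uncalled. Ndufs3, a subunit with which assembly of the Q module begins, read 10.21, 10.15, 10.31 and 10.40 in knockdown hearts 1 to 4, against 10.60, 10.58, 10.43 and 10.48 in wild-type hearts 1 to 4. Knockdown hearts 1 and 2 were the lowest for this gene, and the difference of -0.26 ± 0.102 did not pass (limma, adjusted p = 0.177).

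Of the listed core genes of the N module, where NADH is oxidised, Ndufv1 and Ndufv2 were measured. Ndufv2, which holds an iron-sulfur cluster of the N module, had log2 intensities of 12.86, 12.72, 12.84 and 12.88 in knockdown hearts 1 to 4, against 12.90, 12.93, 13.03 and 13.03 in wild-type hearts 1 to 4. Knockdown heart 2 was lowest and the groups touched without overlapping, at 12.88 in knockdown heart 4 and 12.90 in wild-type heart 1. Its difference was -0.15 ± 0.0961 (limma, adjusted p = 0.44). Ndufv1, which binds NADH and the flavin, read 13.11, 13.08, 13.20 and 13.18 in knockdown hearts 1 to 4, against 13.32, 13.35, 13.28 and 13.15 in wild-type hearts 1 to 4. Wild-type heart 4 lay among the knockdown hearts, and the difference was -0.13 ± 0.0969 (limma, adjusted p = 0.486). Ndufs1, the third listed core gene of the N module, was detected on none of the 8 arrays, so its level was not measured.

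**Figure D3:**
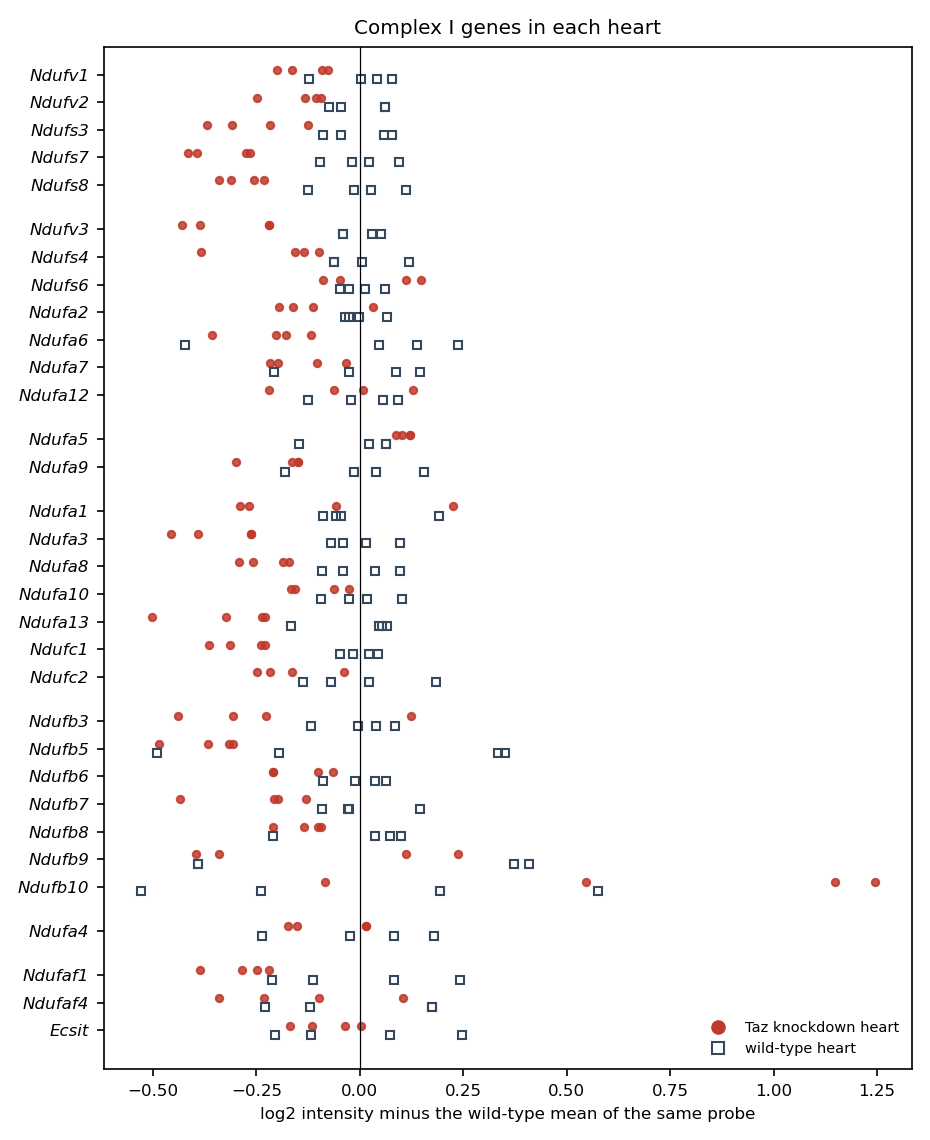
Log2 intensity of each complex I gene in each heart, as the deviation from the wild-type mean of the same probe; filled red circles are the 4 Taz knockdown hearts and open squares the 4 wild-type hearts. For 12 of the 32 genes (37.5%, against 8.36% of all tested genes), among them Ndufs7, Ndufv3, Ndufa3 and Ndufc1, the red circles all lie left of the squares.

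Accessory subunits of the N module gave the only call. The 7 genes had a median difference of -0.14, with 6 below 0 and 2 (28.6%) separated in the lower direction. Such separation held for 8.36% of all genes and 19.4% of the bright genes. Ndufv3, an accessory subunit that is made in a short and a long form by alternative splicing, was read by 2 tested probes. Its dimmer probe (ILMN_3008277) had log2 intensities of 12.27, 12.18, 12.44 and 12.04 in knockdown hearts 1 to 4, against 12.62, 12.64, 12.76 and 12.58 in wild-type hearts 1 to 4. Ndufv3 fell by this probe to 74.8% of the wild-type level, with a difference of -0.42 ± 0.112 (limma, adjusted p = 0.0485). The call was close to the threshold and held in 4 of 18 alternative analyses, whose adjusted p ran from 0.00236 to 0.180, while the difference was negative in all 18, from -0.59 to -0.36.

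The brighter Ndufv3 probe (ILMN_2668977) read 13.37, 13.32, 13.53 and 13.53 in knockdown hearts 1 to 4, against 13.78, 13.80, 13.71 and 13.71 in wild-type hearts 1 to 4. On both Ndufv3 probes all knockdown hearts were below all wild-type hearts, and knockdown hearts 3 and 4 were equal on the brighter one, but its difference of -0.31 ± 0.0992 did not pass (limma, adjusted p = 0.0902). Which Ndufv3 form each probe reads was not resolved here.

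Ndufs4, whose loss causes Leigh-like disease in people and mice, had 4 tested probes. The brightest read 12.56, 12.27, 12.50 and 12.52 in knockdown hearts 1 to 4, against 12.66, 12.59, 12.59 and 12.77 in wild-type hearts 1 to 4. Knockdown heart 2 was the lowest of the 8 hearts and the groups did not overlap, though the difference of -0.19 ± 0.105 did not pass (limma, adjusted p = 0.338). Of the 3 dim probes, 2 had differences of -0.32 and -0.31, and the dimmest had 0.17, each with overlapping groups.

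Ndufa6, a small protein that binds an acyl carrier protein to the peripheral arm, read 12.39, 12.15, 12.31 and 12.33 in knockdown hearts 1 to 4, against 12.75, 12.09, 12.56 and 12.65 in wild-type hearts 1 to 4. Wild-type heart 2 was the lowest of all 8 hearts and lay apart from the other wild-type hearts, so that the groups overlapped at a difference of -0.21 ± 0.144 (limma, adjusted p = 0.449). The remaining N module accessory genes had differences of -0.14 for Ndufa7, -0.11 for Ndufa2, -0.04 for Ndufa12 and 0.03 for Ndufs6, none past the test. Ndufs6 held a YY1 core like Ndufs7, and its groups overlapped widely.

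The 2 accessory genes of the Q module had differences of opposite sign, neither past the test. Ndufa5, which sits on the Q module next to Ndufs3, read 13.43, 13.47, 13.47 and 13.45 in knockdown hearts 1 to 4, against 13.41, 13.41, 13.37 and 13.20 in wild-type hearts 1 to 4. It was the only member for which every knockdown heart was above every wild-type heart, by 0.11 ± 0.0964 (limma, adjusted p = 0.588). That order rested on a narrow margin between 13.43 in knockdown heart 1 and 13.41 in wild-type hearts 1 and 2, and its dim second probe overlapped. When Myl7, an atrial gene whose own level did not overlap between the groups, was added as a covariate, the difference was -0.0006.

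Ndufa9, a protein of the dehydrogenase fold that binds NADPH at the junction of both arms, had log2 intensities of 13.32, 13.18, 13.33 and 13.33 in knockdown hearts 1 to 4, against 13.47, 13.64, 13.30 and 13.52 in wild-type hearts 1 to 4. Wild-type heart 3 lay among the knockdown hearts, of which heart 2 was the lowest. The difference was -0.19 ± 0.106 (limma, adjusted p = 0.348).

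The proximal membrane arm had the lowest median of the 4 accessory modules, close to the distal arm over genes detected in all 8 hearts. All 7 measured genes had negative differences, with a median of -0.23. Groups did not overlap for 4 of them (57.1%), against 8.36% of all genes and 19.4% of the bright genes in the lower direction. Ndufa3, a small membrane subunit, read 13.56, 13.37, 13.56 and 13.43 in knockdown hearts 1 to 4, against 13.92, 13.75, 13.84 and 13.78 in wild-type hearts 1 to 4. All knockdown hearts were below all wild-type hearts, with means of 13.48 ± 0.10 in knockdown and 13.82 ± 0.07 in wild-type hearts (SD, n = 4 each). The difference was -0.34 ± 0.0995, or 78.8% of the wild-type level (limma, adjusted p = 0.0669). Its limma adjusted p ran from 0.00272, with the trended and robust prior, to 0.2615, and 15 of 18 alternatives left it uncalled.

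Ndufa13, also known as GRIM-19 for its part in cell death, read 13.05, 12.95, 13.04 and 12.77 in knockdown hearts 1 to 4, against 13.34, 13.11, 13.32 and 13.33 in wild-type hearts 1 to 4. The groups did not overlap, knockdown heart 4 was lowest, and wild-type heart 2 lay below the other wild-type hearts. The difference was -0.32 ± 0.108 (limma, adjusted p = 0.111). Its limma adjusted p ran from 0.0105, with the trended and robust prior, to 0.381, and 16 of 18 alternatives left it uncalled.

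Ndufc1, another small membrane subunit, was read by 2 probes that gave similar differences. The brighter read 13.53, 13.52, 13.45 and 13.40 in knockdown hearts 1 to 4, against 13.74, 13.71, 13.78 and 13.80 in wild-type hearts 1 to 4. The dimmer read 10.43, 10.18, 10.19 and 10.19 in knockdown hearts 1 to 4, against 10.49, 10.44, 10.77 and 10.75 in wild-type hearts 1 to 4. On both Ndufc1 probes every knockdown heart was below every wild-type heart, with differences of -0.29 ± 0.0931 and -0.37 ± 0.119 (limma, adjusted p = 0.0999 and 0.1).

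Among the rest of the proximal arm, Ndufa8, a subunit imported into the intermembrane space, had a difference of -0.23 without overlap on its brighter probe and -0.16 with overlap on the other. Ndufc2 had -0.17, Ndufa10 -0.10 and Ndufa1, an X-linked subunit, -0.10, all with overlapping groups and none past the test.

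The distal membrane arm was read in part by dim probes. Of its 7 measured genes 6 were below 0, with a median of -0.15. Over the 5 detected in all 8 hearts the median was -0.21, with all 5 below 0, beside -0.23 for the proximal arm. Groups were separated in the lower direction for 1 (14.3%), between the shares of all genes (8.36%) and of the bright genes (19.4%). Ndufb7, a subunit of the intermembrane space side, read 9.91, 9.60, 9.83 and 9.84 in knockdown hearts 1 to 4, against 9.95, 10.01, 10.18 and 10.01 in wild-type hearts 1 to 4. The groups lay just apart, with knockdown heart 2 the lowest, and the difference was -0.24 ± 0.108 (limma, adjusted p = 0.23).

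Ndufb5, a membrane-spanning subunit, had log2 intensities of 6.55, 6.49, 6.54 and 6.37 in knockdown hearts 1 to 4, against 6.36, 6.66, 7.19 and 7.21 in wild-type hearts 1 to 4. Wild-type heart 1 was the lowest of the 8 hearts, wild-type heart 2 was just above the knockdown hearts, and wild-type hearts 3 and 4 were the highest. The difference was -0.37 ± 0.179 (limma, adjusted p = 0.274).

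Ndufb10, a disulfide-bonded subunit facing the intermembrane space, had the largest positive difference of the members and the widest spread. Its log2 intensities were 6.18, 5.58, 6.27 and 4.94 in knockdown hearts 1 to 4, against 5.22, 4.79, 4.50 and 5.60 in wild-type hearts 1 to 4. Knockdown hearts 1 and 3 were highest and knockdown heart 4 was within the wild-type range, and the difference of 0.71 ± 0.301 did not pass (limma, adjusted p = 0.203). This probe was not detected in 1 knockdown and 2 wild-type hearts.

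The other distal genes had differences of -0.21 for Ndufb3, -0.15 for Ndufb6, -0.14 for Ndufb8 and -0.10 for Ndufb9, with overlapping groups. A dim second probe of Ndufb6 went the other way, at 0.56 ± 0.212 (limma, adjusted p = 0.155).

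**Figure D4:**
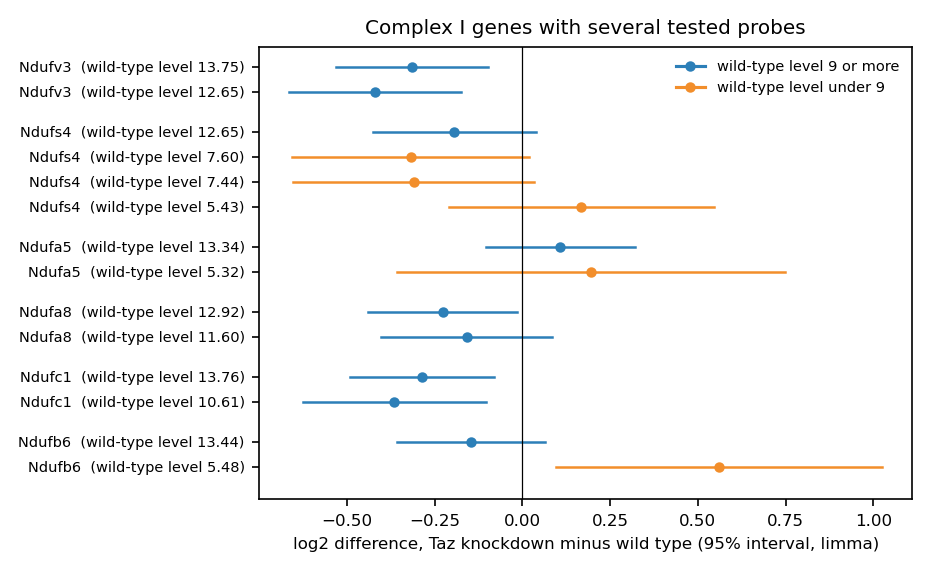
Differences between Taz knockdown and wild-type hearts for the 14 probes of the 6 genes with several tested probes, with the 95% interval from limma; labels give the mean log2 intensity in wild-type hearts. Bright probes of Ndufv3, Ndufc1 and Ndufa8 lie on the same side of 0 within each gene, and the dimmest probes of Ndufs4 and Ndufb6 lie on the other side from the brightest.

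Assembly factors were measured by 3 genes, all below 0 with a median of -0.14. Ndufaf1, a part of the complex that assembles the proximal membrane arm, read 6.94, 7.10, 7.07 and 7.04 in knockdown hearts 1 to 4, against 7.11, 7.21, 7.57 and 7.41 in wild-type hearts 1 to 4. The groups did not overlap, but knockdown heart 2 at 7.10 and wild-type heart 1 at 7.11 nearly met. The difference was -0.28 ± 0.119 (limma, adjusted p = 0.199).

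Ndufaf4, which acts early in assembly, had log2 intensities of 10.28, 10.04, 10.15 and 10.48 in knockdown hearts 1 to 4, against 10.26, 10.15, 10.55 and 10.55 in wild-type hearts 1 to 4. Ecsit, a partner of Ndufaf1 that is also an adaptor of Toll-like receptor signalling, read 7.14, 7.18, 7.06 and 7.0 in knockdown hearts 1 to 4, against 7.06, 6.97, 7.25 and 7.42 in wild-type hearts 1 to 4. Neither gene separated the groups, at -0.14 ± 0.136 and -0.08 ± 0.119 (limma, adjusted p = 0.618 and 0.769), and without wild-type heart 4 the Ecsit difference was 0.0035. In all 3 assembly genes wild-type hearts 3 and 4 were above wild-type hearts 1 and 2. Ndufa4 of complex IV read 13.78, 13.59, 13.61 and 13.78 in knockdown hearts 1 to 4, against 13.53, 13.85, 13.74 and 13.95 in wild-type hearts 1 to 4, with full overlap and a difference of -0.07 ± 0.117 (limma, adjusted p = 0.777).

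Further complex I genes outside the list were read the same way. Of 22 such genes, 10 were tested, with a median of -0.03 and 3 without overlap in the lower direction, beside 8.36% of all genes. Of the 10, 6 were below 0 (60%), beside 52.2% of all tested genes, and 4 were above. Those above 0 were Tmem126b at 0.18, Acad9 at 0.17, Tmem126a at 0.14 and Tmem70 at 0.04, with overlapping groups and none past the test. Foxred1, an assembly factor of the oxidoreductase family, fell by 0.43 on its brightest probe, which read 9.52, 9.62, 9.45 and 9.45 in the knockdown hearts and 9.77, 10.10, 9.90 and 9.96 in the wild-type hearts (limma, adjusted p = 0.0382). Its other 3 tested probes had differences of -0.40, -0.12 and -0.11, and none passed. Tmem186, a partner of Ndufaf1, had -0.35 and Ndufaf5, which modifies Ndufs7 during assembly, had -0.27, both with separated groups and neither past the test.

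Within single hearts, the median deviation of the 32 genes from their wild-type means was -0.11, -0.26, -0.19 and -0.17 in knockdown hearts 1 to 4, against -0.00, -0.07, 0.03 and 0.04 in wild-type hearts 1 to 4. The medians of the groups did not overlap. Knockdown heart 2 was the lowest of the 8 hearts for 16 of the 32 genes, whereas knockdown heart 1 was the lowest for 1. Over all tested genes the same median was between -0.02 and 0.00 in the knockdown hearts. Without knockdown heart 2 the complex I median was -0.13, with 29 of 32 genes below 0, and without wild-type heart 4, the heart with brown fat signal, it was -0.17 with 27 below 0. With Myl7 as a covariate it was -0.19, with 27 below 0. Myl7 itself did not overlap between the groups, at 8.21 to 8.55 in knockdown and 8.70 to 9.68 in wild-type hearts. That fit therefore cannot fully separate the Myl7 level from the group. The part of atrial, brown fat, leukocyte or red blood cell RNA in single gene differences was not tested beyond these values.

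No test compared complex I with the other complexes of the respiratory chain. The median difference was -0.28 over 2 genes of complex II, -0.11 over 7 of complex III, -0.20 over 12 of complex IV and 0.01 over 14 of ATP synthase. Below 0 were 2 of 2, 6 of 7, 7 of 12 and 6 of 14 of these genes, beside 29 of 32 for complex I. Over genes detected in all 8 hearts the median was -0.13 for 11 of complex IV and -0.18 for 30 of complex I. The groups were separated in the lower direction for 0 of 2 genes of complex II, 2 of 7 of complex III, 4 of 12 of complex IV and 0 of 14 of ATP synthase, beside 12 of 32 for complex I. Over all tested genes this share was 8.36%. In complex IV, Cox8a rose by 0.45 ± 0.117 (limma, adjusted p = 0.045), opposite to the median of its complex, and Cox8b had -0.39 without passing. In complex III, Uqcr11 had -0.38 and Uqcrc2 -0.21, both with separated groups and neither past the test. For ATP synthase, Atp5h had -0.45 and Atp5o 0.34, with neither past the test.

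**Figure D5:**
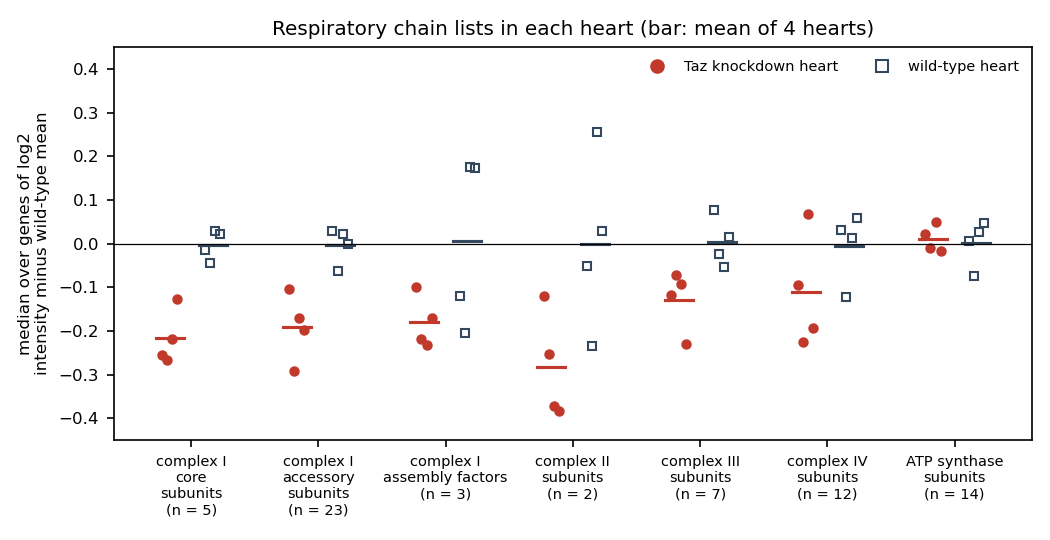
Median deviation from the wild-type mean over the genes of each list, in log2 intensity, for each Taz knockdown heart (red circles, left) and wild-type heart (open squares, right); bars are means of 4 hearts and n is the number of genes. Knockdown and wild-type hearts do not overlap for the core and accessory subunits of complex I or for complex III, and they overlap for the other 4 lists.

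The 7 members with a YY1 core were spread over the range of differences. Ndufs7, Ndufa3, Ndufc1, Ndufs4, Ndufa9, Ndufb8 and Ndufs6 had -0.34, -0.34, -0.29, -0.19, -0.19, -0.14 and 0.03. Members without these letters, such as Ndufv3 at -0.31 and Ndufa13 at -0.32, had differences in the same range. The relation of motif and difference was not tested.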

How the data were processed

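Total RNA of 8 whole hearts was read on Illumina bead arrays. The deposited table holds, per the file headers, an intensity and a detection p-value per probe and array. The intensities were not normalized but were background-subtracted, since 28.2% to 31.5% of them per array are below 0, so dim probes are the least precise. A second deposited table holds quantile-normalized intensities and served as an alternative. Software is not given in the sources used here.

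The intensities were corrected and quantile-normalized with neqc (offset 16) in limma 3.58.1 under R 4.3.3. Probes with a detection p-value under 0.05 on 4 or more of 8 arrays were fitted with lmFit and eBayes, knockdown minus wild type, and Benjamini-Hochberg adjusted over 9397 probes. The code was tested on simulated data. Probe genes came from the platform annotation, with 23962 symbols updated through RefSeq, and 1719 probes had none. A gene is represented by its probe of highest mean. The members, lists and tests were chosen with earlier results of these data known. Hearts were given one by one for core subunits, assembly factors, Ndufa4, any called probe and the 3 largest differences of each accessory module, and for other complexes up to 2 genes of smallest p were named. Alternatives changed the normalization, offset, probe filter, variance prior, array weights, replicate block, Myl7 covariate, probe averaging and the hearts included. Same-numbered hearts of both groups had correlations of deviations of 0.165, 0.005, -0.093 and -0.005, so the numbers were not taken as pairs.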

Additional observations from a re-analysis of the deposited data

Results flagged for a closer look

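Of 98 groups of 4 hearts examined for 1 heart apart from its group, 4 held such a heart, where chance alone is taken to give about 1 in 20. Knockdown heart 2 was lowest for Ndufa9, at a log2 intensity of 13.18 against 13.32 to 13.33 in the other knockdown hearts. Knockdown heart 1 was highest for the dimmer Ndufc1 probe, at 10.43 against 10.18 to 10.19. Wild-type heart 2 was lowest for Ndufa13, at 13.11 against 13.32 to 13.34 in the other wild-type hearts. Wild-type heart 4, which also had the Ucp1 signal, was highest for Ndufa1, at 11.83 against 11.55 to 11.59.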

How the results depend on the processing

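Against 1 lower member probe, 0 were called with the deposited table, median scaling, no filter, array weights, the replicate block or the Myl7 covariate, 7 with an offset of 50, 4 with the stricter detection filter, 9 with a variance prior given a trend and robust estimation together, and 0 to 1 without 1 heart. Of all probes, 297 were lower and 321 higher; 451 were lower with the offset of 50, 477 with that prior, 184 with the replicate block, 26 with Myl7 (73 higher), 161 against wild-type hearts 3 and 4 alone (204 higher), the mice whose numbers in the labels run on with the knockdown mice, a choice made after seeing the data, and without 1 heart 184 (knockdown heart 1) to 256 were lower and 198 (knockdown heart 2) to 262 higher. The complex I median was -0.21 against wild-type hearts 3 and 4 alone and between -0.21 and -0.13 without 1 heart. The core median was -0.20 without a filter, a setting that adds Ndufs1, which was detected on no array. The assembly median was -0.32 against wild-type hearts 3 and 4. These hearts were the higher wild-type hearts for the assembly genes, and the reason was not tested. With Myl7, whose own level did not overlap between the groups, the sign turned for Ecsit (0.0473), Ndufa4 (0.13) and Ndufa5 (-0.0006). Without wild-type heart 4 the sign turned for Ecsit (0.0035, and down to -0.15 without another heart). Ndufv3 had an adjusted p of 0.0745 under the replicate block. The causes were not tested. Medians of the accessory genes moved by less than the spread between hearts in all alternatives. With 4 hearts a group, an exact permutation test cannot go below 0.0286, and dim probes such as those of Ndufb9 and Ndufb10 limit the distal arm.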
